A study of Mus musculus with 6 samples.

Results

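The tetraspanins described here are 8 mouse genes, Tspan32, Cd37, Cd53, Cd81, Cd9, Cd82, Cd151 and Cd63, read on 12 of the 46643 probes of an Illumina mouse expression array. They were chosen from measured values of these same arrays, so their differences between tissues are given as a description, with an error and no test. By the symbols of the rule that defines the set, 7 genes had 11 probes. Tspan32 appears on the array under its older symbols Phemx and Tssc6, and Cd82 was read through its older symbol Kai1, which the RefSeq gene table lists as a synonym. All 12 probes were among the 18583 kept because both arrays of at least 1 tissue detected them. Cd151 probe 3 was kept through spleen alone and so had to differ between tissues. Tspan32 probe 2 and Cd81 were kept through skin and spleen and were not detected in intestine, and Cd63 was kept through intestine and spleen and was not detected in skin.

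The arrays profiled cells labelled as natural killer (NK) cells from intestine (gut lamina propria), skin and spleen, with 2 arrays per tissue, and asked how such cells differ between mucosa, skin and a lymphoid organ. The cells were sorted for CD45 and Nkp46, for a marker that the labels spell NK11, and for the lack of CD3. All 3 groups came from 12-week-old male C57BL/6 mice that carry the RAG-2 knockout and so make no T or B cells of their own. Nothing in the labels says whether the replicates I and II of a tissue came from separate mice, so the errors and p-values reflect array-to-array spread that may be only technical.

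Tetraspanins are small proteins whose chain crosses the membrane several times and exposes a short and a long loop outside the cell. They bind each other and a set of partners, among them integrins, immunoglobulin-type receptors and metalloproteases, and gather them into membrane patches that tune adhesion, signalling and traffic. Some are found mainly on leukocytes (CD37, CD53, TSPAN32), some on many cell types (CD9, CD81, CD82, CD151), and CD63 lies mainly in late endosomes, lysosomes and secretory granules and reaches the surface when granules fuse.

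The deposited signals had the same mean of 83.1 on every array, and between 15196 and 18530 probes were detected on each, most of them on the spleen arrays. The correlation between replicates over the kept probes was 0.984 in intestine, 0.989 in skin and 0.995 in spleen. Klrb1c, which encodes NK1.1, gave signals of 978 and 1073 in intestine, 2125 and 2003 in skin, and 2311 and 2071 in spleen. All 6 arrays detected Ncr1, which encodes NKp46, and Ptprc, which encodes CD45, and none detected Cd3e. Ncr1 gave 10.8 and 14.7 in intestine, 33.1 and 32.4 in skin, and 88.2 and 52.9 in spleen. Its intestine signals were dim, beside lowest detected signals of 5.65 and 8.87 on those arrays. The single Rag2 probe was detected on 4 of 6 arrays at signals of up to 13.2, and no source used here says whether it lies in the deleted part, so it checks nothing.

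RefSeq gives a start and promoter for all 8 genes, 12 starts in all on build GRCm38.p6, and the promoters of Tspan32, Cd81 and Cd63 are shown because these 3 genes had the widest fitted ranges between tissue means on the log2 scale and because the first 2 are near neighbours that were both dim in intestine. The windows hold the 250 bases before the start, 5′ to 3′ on the plus strand: chr7:143004796-143005045 for Tspan32, chr7:143052500-143052749 for Cd81 and chr10:128909095-128909344 for Cd63. Capitals mark matches on either strand to any of 6 short motifs, spelled out after the sequences.
Tspan32 promoter: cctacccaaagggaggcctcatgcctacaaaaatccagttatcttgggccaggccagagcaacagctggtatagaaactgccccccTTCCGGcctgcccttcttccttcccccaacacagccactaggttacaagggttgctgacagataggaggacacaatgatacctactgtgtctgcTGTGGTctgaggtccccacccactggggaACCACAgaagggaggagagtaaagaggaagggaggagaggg
Cd81 promoter: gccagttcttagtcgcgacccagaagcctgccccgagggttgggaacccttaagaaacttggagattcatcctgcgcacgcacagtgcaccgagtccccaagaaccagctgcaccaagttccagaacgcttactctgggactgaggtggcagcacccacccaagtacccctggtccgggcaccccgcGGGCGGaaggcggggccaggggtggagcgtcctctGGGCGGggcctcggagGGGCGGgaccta
Cd63 promoter: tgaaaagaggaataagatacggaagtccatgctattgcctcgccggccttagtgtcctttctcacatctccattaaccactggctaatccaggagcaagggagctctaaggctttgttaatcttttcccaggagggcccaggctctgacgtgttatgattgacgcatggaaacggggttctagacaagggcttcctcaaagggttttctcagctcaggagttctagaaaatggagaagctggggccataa
The Tspan32 window held 1 ETS core and 2 RUNX sites. The Cd81 window held 3 GC boxes. The Cd63 window held none of the 6 motifs, which says only that these letters are not in it. The share of all 32851 RefSeq windows of this length that held a motif was 12.0% for the ETS core, searched as CCGGAA, and 14.0% for the RUNX site, searched as TGTGGT. For the GC box, searched as GGGCGG, the share was 32.7%, and for the T-box half-site, searched as GGTGTG, it was 16.3%. For the nuclear receptor half-site, searched as AGGTCA, the share was 14.0%, and for the TATA box, searched as TATAAA, it was 12.4%. No matches overlapped in the 3 windows shown. G and C made up 55.6% of the Tspan32 window, 65.6% of the Cd81 window and 48.8% of the Cd63 window, beside a median of 52.4% over all windows. A match is a description of the sequence and not evidence of binding.

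Tspan32 had the widest fitted log2 difference of the 8 genes. It encodes a tetraspanin of blood cells that restrains T cell proliferation in mice. Its brighter probe (770102, listed under Phemx) gave signals of 31.6 and 29.1 in intestine, 382 and 411 in skin, and 463 and 511 in spleen. Both intestine arrays were far below the other 4, and the skin arrays lay just below the spleen arrays without overlap. On the log2 scale, with 16 added to every signal beforehand and the arrays then quantile normalized, the difference of intestine minus spleen was -3.11 ± 0.14 (SE, n = 2 arrays per tissue), an 8.61-fold lower value in intestine. The difference of intestine minus skin was -3.02 ± 0.14, or 8.11-fold lower in intestine, and that of skin minus spleen was -0.09 ± 0.14. Since the intestine signals were dim beside the offset, both folds understate the change in signal. Each slide held 1 array of each tissue, and the differences of intestine minus spleen within slide 1 and slide 2 were -2.98 and -3.23.

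The second Tspan32 probe (104210347, listed under Tssc6) had the same order. Its signals were 2.21 and -3.29 in intestine, where it was not detected, 33.6 and 20.2 in skin, and 65.1 and 49.1 in spleen. The tissues did not overlap. Against the lowest detected signal of each intestine array, the probe was at least 2.62-fold lower in intestine than in spleen and at least 1.85-fold lower than in skin, and skin minus spleen was -0.51 ± 0.21. Because the offset pulls dim values together, log2 differences of dim probes understate the change, and the 2 probes of the gene are not compared in size. In sorted bulk samples, fewer cells that express a gene and less RNA per cell cannot be told apart.

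**Figure D1:**
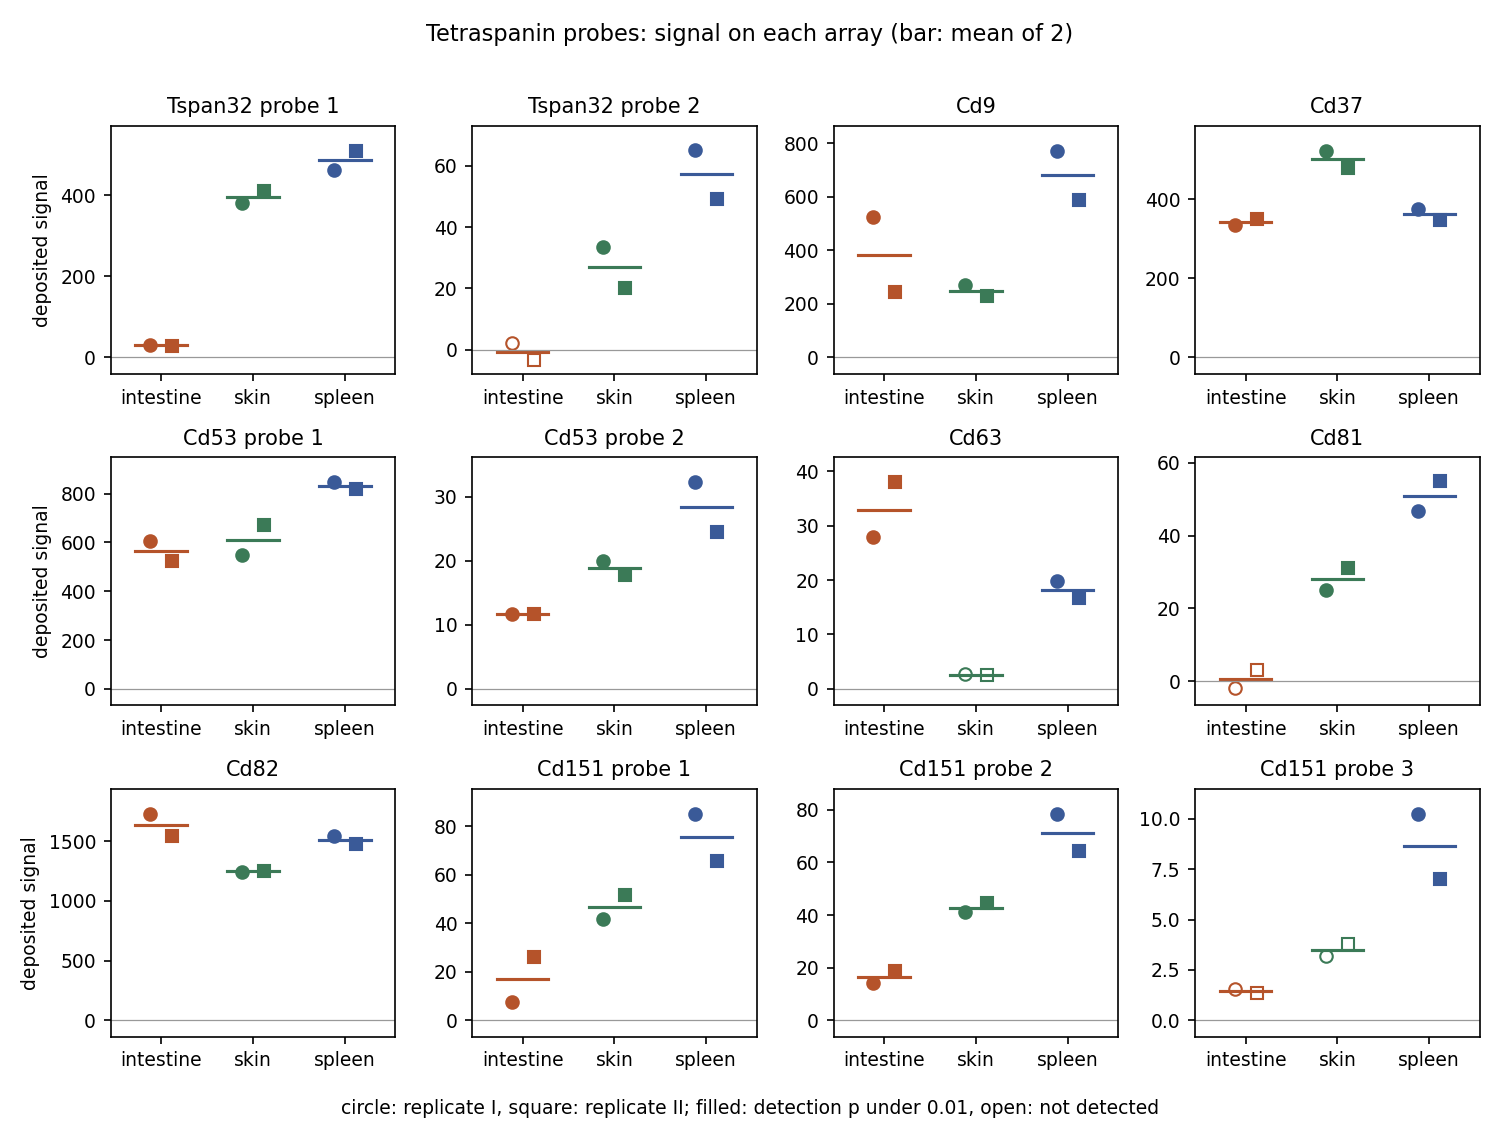
Deposited signal (background-subtracted intensity, linear axes with their own range in each panel) of the 12 tetraspanin probes on the 2 arrays each of intestine, skin and spleen, with circles for replicate I, squares for replicate II, open points where not detected, and a bar at the mean of 2 arrays. Tspan32, Cd81 and probes 1 and 2 of Cd151 are lowest in intestine, Cd63 is lowest in skin, and Cd82 lies between 1242 and 1731 on every array.

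Cd37 and Cd53, the other leukocyte tetraspanins, varied far less. Cd37 (probe 770273), which limits T cell proliferation and sustains B cell survival in mice, gave 335 and 350 in intestine, 523 and 478 in skin, and 376 and 348 in spleen. The skin arrays were above all others, while intestine and spleen overlapped. Skin minus spleen was 0.66 ± 0.14 (1.58-fold higher in skin) and intestine minus skin was -0.45 ± 0.14. The intestine to spleen difference was 0.21 ± 0.14, and it turned to -0.08 with the deposited scaling alone.

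Cd53, carried by nearly all leukocytes and known to bind CD2 in rat, was measured by a bright and a dim probe. The bright probe (5550162) gave 606 and 523 in intestine, 550 and 673 in skin, and 848 and 818 in spleen. Spleen lay above the other 2 tissues, which overlapped. Intestine minus spleen was -0.40 ± 0.15 and skin minus spleen -0.31 ± 0.15. Intestine minus skin was -0.08 ± 0.15, with opposite signs on the slides (0.12 on slide 1 and -0.29 on slide 2) and a positive value under median scaling. The dim probe (105420722) gave 11.6 and 11.7 in intestine, 20.0 and 17.8 in skin, and 32.3 and 24.5 in spleen, so that here the 3 tissues did not overlap. Its intestine minus spleen was -0.43 ± 0.14, of the same sign as that of the bright probe. The offset pulls this dim probe towards 0, so the sizes are not compared.

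Cd81 was not detected in intestine. Its protein, when bound on human NK cells, dampens their activation. The probe (5270093) gave -1.92 and 3.04 in intestine, 25.0 and 31.2 in skin, and 46.8 and 54.9 in spleen. The order was intestine, then skin, then spleen, with no overlap between tissues. Cd81 was at least 2.43-fold lower in intestine than in spleen and at least 1.89-fold lower than in skin. The log2 differences were -1.84 ± 0.17 for intestine minus spleen, -0.36 ± 0.17 for skin minus spleen and -1.48 ± 0.17 for intestine minus skin.

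Cd9 was highest in spleen. It encodes a tetraspanin of integrins and of sperm-egg fusion that is abundant on platelets. The probe (4730041) gave 523 and 243 in intestine, 270 and 228 in skin, and 772 and 587 in spleen. The intestine arrays were far apart, with replicate I more than double the value of replicate II, and overlapped with skin but not with spleen. Skin minus spleen was -1.25 ± 0.27, which is 2.37-fold lower in skin, and the slides gave -1.30 and -1.19. The difference of intestine minus spleen was -0.68 ± 0.27, and without intestine replicate II it was -0.21, against -1.13 without intestine replicate I. Intestine minus skin was 0.57 ± 0.27, with 0.90 on slide 1 and 0.23 on slide 2.

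Cd82, known in human tumour cells as a suppressor of metastasis, was bright on every array. The probe (4780711) gave 1731 and 1547 in intestine, 1242 and 1253 in skin, and 1545 and 1480 in spleen. Skin was lowest, and intestine and spleen met at 1547 and 1545. Intestine minus skin was 0.35 ± 0.13, skin minus spleen was -0.24 ± 0.13 and intestine minus spleen was 0.10 ± 0.13. Under median scaling, intestine minus skin was 0.52 and intestine minus spleen 0.47.

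Cd151, the partner of laminin-binding integrins, was read by 3 probes, of which probes 1 and 2 put spleen first and intestine last. Probe 1 (3780309) gave 7.70 and 26.2 in intestine, 41.9 and 51.7 in skin, and 85.3 and 65.6 in spleen. Probe 2 (103290397) gave 14.1 and 18.9 in intestine, 41.0 and 44.5 in skin, and 78.6 and 64.2 in spleen. The tissues did not overlap on either probe, and the intestine arrays of probe 1 were far apart. Intestine minus spleen was -1.16 ± 0.25 for probe 1 (2.24-fold lower in intestine), with -1.76 on slide 1 and -0.57 on slide 2. For probe 2 it was -1.05 ± 0.14, or 2.07-fold lower in intestine. Both probes were dim, so with the offset these folds understate the change in signal. Probe 3 (1450592) was detected on the spleen arrays alone, with 1.55 and 1.36 in intestine, 3.19 and 3.77 in skin, and 10.3 and 7.02 in spleen, so it gives no order between intestine and skin. Skin minus spleen was -0.27 ± 0.25 for probe 1 and -0.30 ± 0.14 for probe 2.

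Cd63 had its own order. The granule and lysosome tetraspanin gave signals on its probe (6660451) of 27.9 and 38.0 in intestine, 2.78 and 2.47 in skin, where it was not detected, and 19.8 and 16.7 in spleen. Intestine was highest and skin lowest, and no 2 tissues overlapped. Intestine minus spleen was 0.78 ± 0.15, a 1.72-fold higher value in intestine, with 0.59 on slide 1 and 0.98 on slide 2. Cd63 was at least 2.34-fold higher in intestine than in skin (1.61 ± 0.15 on the log2 scale). It was at least 1.36-fold lower in skin than in spleen (-0.83 ± 0.15).

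**Figure D2:**
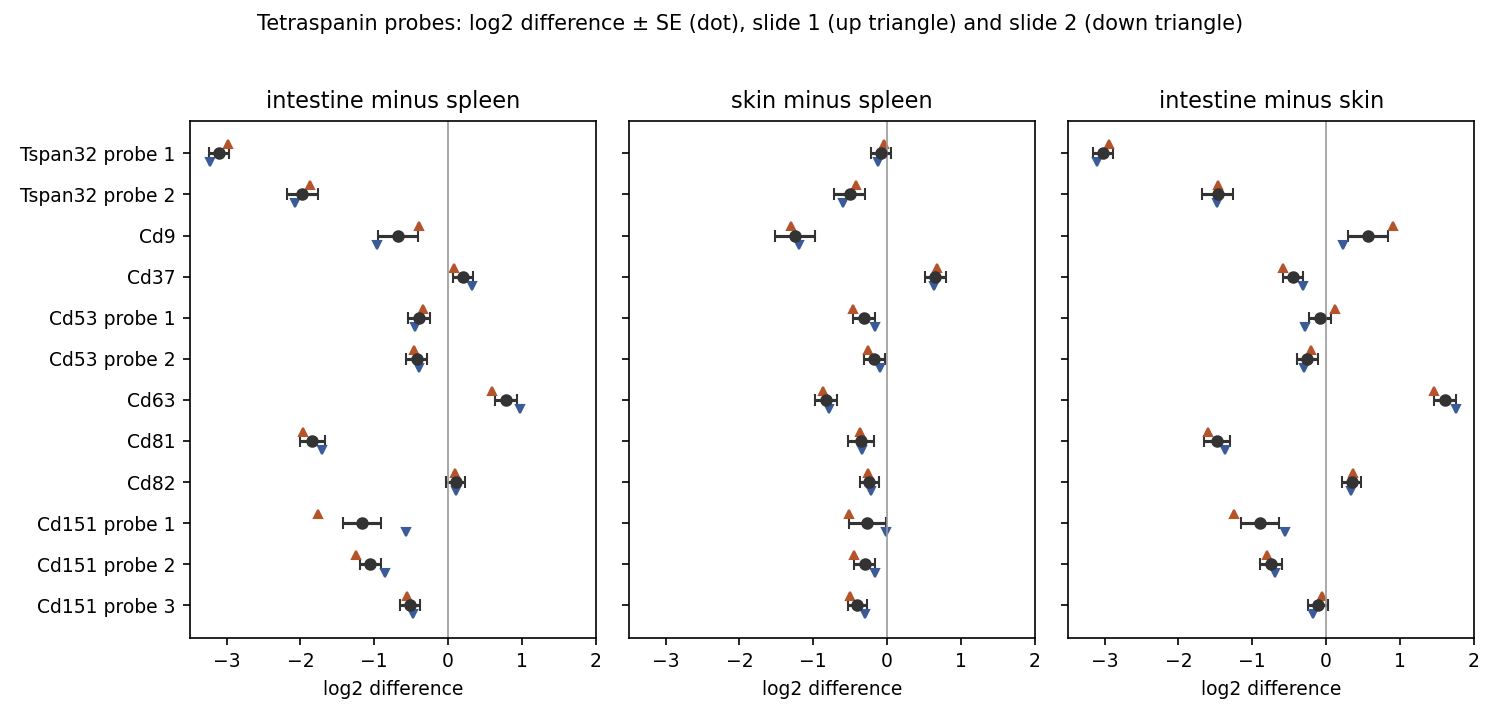
Log2 difference between tissues for the 12 tetraspanin probes, on the scale of log2(signal + 16) after quantile normalization, with the standard error as a bar and the difference within slide 1 and slide 2 as triangles. In intestine minus spleen, Tspan32 probe 1 stands at -3.11 and Cd63 at 0.78, and the slides are farthest apart for Cd151 probe 1, at -1.76 and -0.57.

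The range between the highest and the lowest tissue mean of each gene's brightest probe, on the log2 scale, was 3.11 for Tspan32, 1.84 for Cd81, 1.61 for Cd63, 1.25 for Cd9, 1.16 for Cd151, 0.66 for Cd37, 0.40 for Cd53 and 0.35 for Cd82. The lowest tissue of Cd81 and Cd63 was below detection, Cd151 was dim, and Tspan32 was dim in intestine. The ranges of Tspan32, Cd81, Cd63 and Cd151 are therefore understated, and these genes are not ranked against the others. The median difference of the 12 probes was -0.60 in intestine minus spleen, -0.31 in skin minus spleen and -0.35 in intestine minus skin, beside -0.07, -0.04 and -0.05 over all kept probes. Since the genes were chosen from these values, nothing is read from the medians.

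Transcripts of other cells that carry tetraspanins were looked for on the same arrays. The T cell, gut epithelium and keratinocyte lists are not reported here. Of 9 platelet and erythroid markers, between 3 and 6 were detected per array. Their summed signal was 1111 and 697 in intestine, 1046 and 799 in skin, and 11660 and 17532 in spleen. Most of it was haemoglobin and not platelet transcript. In spleen the brightest Hbb-b1 probe gave 7318 and 10873, and Hba-a1 gave 4099 and 6272. The platelet genes Itga2b, Gp9 and Pf4 were detected on no array. Gp1bb, a chain of the platelet von Willebrand factor receptor, was detected on 4 arrays, with 0.94 and 3.80 in intestine, 18.1 and 13.1 in skin, and 40.9 and 37.7 in spleen. Cd9 was also highest in spleen, and the part of these transcripts in its differences was not tested. Of 14 macrophage and dendritic cell markers, 2 and 3 were detected on the intestine arrays, 3 and 4 on the skin arrays, and 9 on each spleen array. Their sum was 294 and 253 in intestine, 395 and 416 in skin, and 586 and 536 in spleen, while Csf1r, Cd14 and Fcgr1 were detected on no array. This sum has the same order of tissues as Cd81, Cd151 and Tspan32, and its part in their differences was not tested. Of 7 B cell markers, 2 and 1 were detected on the intestine arrays, 1 on each skin array and 3 on each spleen array, with sums of 30.7 and 46.9 in intestine, 25.0 and 18.3 in skin, and 30.9 and 25.0 in spleen. Of 7 mast cell and basophil markers, which include Kit, 2 were detected on each intestine and skin array and 1 on each spleen array. Their sum was 1416 and 1397 in intestine, 137 and 132 in skin, and 287 and 298 in spleen. Nearly all of it was Kit, at 1404 and 1370 in intestine, 115 and 107 in skin, and 282 and 291 in spleen. The order with skin lowest, as for Cd63, is thus that of Kit alone. Its part in the Cd63 differences was not tested. The B cell genes Cd79a, Pax5 and Blnk, and the mast cell and basophil genes Fcer1a, Cpa3, Mcpt4 and Mcpt8, were detected on no array. The sum of 7 fibroblast markers was 1834 and 1726 in intestine, 3782 and 3703 in skin, and 1038 and 1027 in spleen. Only 2 of these genes were detected per array, or 3 on skin replicate II, and Col1a1, Col1a2, Col3a1 and Lum on no array. The sum of 7 endothelial markers, mostly Pecam1, was 587 and 759 in intestine, 213 and 260 in skin, and 256 and 254 in spleen. Of these, Cdh5, Tek and Emcn were detected on no array. Neutrophil markers summed to 157 on spleen replicate II and to at most 19.1 elsewhere. The part of these sums in the tetraspanin differences was not tested.

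The rest of the tetraspanin family was mostly below detection in these cells. Of 23 other family genes, 22 had a probe, and of their 31 probes only 7, from 6 genes, were kept (Rom1, Tspan2, Tspan3, Tspan9, Tspan14 and Tspan17). Tspan14, a regulator of the metalloprotease ADAM10, had signals from 222 to 290 over the 6 arrays and passed the test in no comparison. In intestine minus spleen, 1 of the 7 probes rose, 2 fell and 4 did not pass at a limma adjusted p under 0.05, beside 19.9% higher and 27.6% lower of all 18583 kept probes, and the median was -0.10. In skin minus spleen none passed by limma, beside 10.8% higher and 12.1% lower of all kept probes, and 2 had an unadjusted p under 0.05. In intestine minus skin, 1 rose, 3 fell and 3 did not pass, beside 16.7% higher and 19.5% lower of all kept probes, and the median was -0.34.

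Tspan9 gave 12.9 and 31.6 in intestine, 9.64 and 15.8 in skin, and 8.91 and 4.15 in spleen, where 1 of 2 arrays detected it. Only 1 skin array detected it as well, so the probe was kept through intestine alone and the filter favoured a higher value there. It is the 1 probe counted above as higher in intestine than in spleen. Its difference was 0.87 ± 0.24 on the log2 scale (limma adjusted p = 0.0137), which is no separate evidence of a rise. The call was lost with an offset of 100 (0.24) and without intestine replicate II (0.51) or spleen replicate II (0.69). Rom1, known from photoreceptor discs, gave 16.6 and 18.0 in intestine, 40.0 and 34.8 in skin, and 53.1 and 44.2 in spleen. Both intestine arrays were below all others, and intestine minus spleen was -0.59 ± 0.14 (limma adjusted p = 0.00661), lost without spleen replicate I (-0.49). Its intestine minus skin was -0.57 ± 0.14 (limma adjusted p = 0.00941), lost without skin replicate I (-0.50). Tspan3 was higher in intestine than in skin by 0.77 ± 0.18 (limma adjusted p = 0.0082), with signals of 33.1 and 24.2 in intestine, 10.9 and 17.6 in skin, and 25.1 and 31.7 in spleen; without skin replicate I the call was lost (0.57). One of the Tspan17 probes was lower in intestine than in skin by -0.81 ± 0.13 (limma adjusted p = 0.00109) and was not detected in intestine, where it was at least 1.31-fold lower. Its intestine minus spleen of -0.41 ± 0.13 (limma adjusted p = 0.0292), for which no bound above 1 could be given, was -0.01 under median scaling, and the call was lost without intestine replicate I (-0.37), spleen replicate I (-0.46) or spleen replicate II (-0.37).

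Partner proteins of tetraspanins were listed next, namely 23 genes with 59 probes, of which 33 probes of 13 genes were kept. In intestine minus spleen, 7 of the 33 probes rose, 12 fell and 14 did not pass (all kept probes 19.9% higher and 27.6% lower), with a median of -0.04. In skin minus spleen, 3 rose, 12 fell and 18 did not pass (all kept probes 10.8% and 12.1%), with a median of -0.38. In intestine minus skin, 9 rose, 6 fell and 18 did not pass (all kept probes 16.7% and 19.5%), with a median of -0.01. Those that fell against spleen included probes of Itga4 and Itga6 kept through spleen alone, whose fall the filter favoured. Likewise, those that rose in intestine included probes of Ifitm1 and Cd8a kept through intestine alone. Itga4 and Itga6 had 4 kept probes each, so these counts are of probes and not of genes. Cr2, a partner of CD81 in the B cell coreceptor, and Igsf8 and Ptgfrn, immunoglobulin-type partners of CD9 and CD81, were not kept.

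The partners that rose in intestine were mainly Kit and Ifitm1. Kit, the stem cell factor receptor, which binds CD63, CD81 and CD9 in human cells, gave 1404 and 1370 in intestine, 115 and 107 in skin, and 282 and 291 in spleen on its brighter probe. The intestine arrays stood far above the rest, and intestine minus spleen was 2.41 ± 0.13 (limma adjusted p = 1.05e-06). Against skin the Kit difference was 3.44 ± 0.13 (limma adjusted p = 2.95e-07), and skin minus spleen was -1.02 ± 0.13 (limma adjusted p = 0.00147). Ifitm1, an interferon-induced membrane protein found with CD81 in the B cell coreceptor, gave 313 and 292 in intestine, 19.9 and 19.9 in skin, and 43.3 and 59.6 in spleen. Its intestine minus spleen was 2.60 ± 0.15 (limma adjusted p = 1.45e-06), on the brightest of 4 kept probes. Of the other 3, 2 were kept through intestine alone and so had to be higher there. Cd8a was also called higher in intestine (1.19 ± 0.26 over spleen, limma adjusted p = 0.00394), at signals of 6.05 and 23.3 in intestine and below detection in skin and spleen. It was kept through intestine alone and so had to be higher there, by at least 1.52-fold over spleen, and the call was lost with an offset of 100 (0.26).

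Cd2 and the integrin chain Itgb1 had the opposite order. Cd2, an adhesion receptor that binds CD53 in rat, gave 424 and 438 in intestine, 1567 and 1744 in skin, and 1149 and 1255 in spleen. Intestine was lowest and skin highest, and intestine minus spleen was -1.29 ± 0.14 (limma adjusted p = 6.36e-05) and intestine minus skin -1.83 ± 0.14 (limma adjusted p = 8.75e-06). The brightest Itgb1 probe gave 876 and 829 in intestine, 2286 and 2095 in skin, and 1538 and 1703 in spleen. Intestine minus skin was -1.32 ± 0.14 (limma adjusted p = 6.95e-05). For skin minus spleen the Itgb1 probes disagreed, since the brightest rose by 0.45 ± 0.14 (limma adjusted p = 0.0428) and another fell by 0.69 ± 0.14 (limma adjusted p = 0.0104). Both calls were lost without either spleen array, with values of 0.37 and 0.55 for the first and -0.63 and -0.76 for the second, and the first was also lost without either skin array (0.38 and 0.53).

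The integrin alpha chains and the membrane linkers also differed. Itga4, which pairs with Itgb1 and binds CD81, gave 317 and 308 in intestine, 148 and 160 in skin, and 418 and 489 in spleen on its brightest probe. Skin was lowest, with skin minus spleen at -1.28 ± 0.14 (limma adjusted p = 0.000734). A further Itga4 probe gave -1.08 ± 0.18 (limma adjusted p = 0.00519), lost without spleen replicate I (-0.996). That probe was kept through spleen alone, so the filter favoured a lower value in skin and it adds no separate evidence. Itga6, the laminin receptor chain bound by CD151, gave 49.0 and 25.8 in intestine, 73.0 and 88.4 in skin, and 144 and 154 in spleen on its brightest probe. Intestine minus spleen was -1.26 ± 0.20 (limma adjusted p = 0.000761), the same order of tissues as Cd151. Adam17, a metalloprotease that CD9 binds in human cells, fell in intestine against spleen (-1.16 ± 0.13, limma adjusted p = 9.44e-05), as did 3 of 4 kept probes of Msn (moesin), the widest at -1.34 ± 0.18 (limma adjusted p = 0.000263). The call of 1 of these Msn probes (-0.51 ± 0.16) was lost without intestine replicate II (-0.39), spleen replicate I (-0.55) or spleen replicate II (-0.49). Ezr (ezrin) was higher in skin than in spleen by 0.53 ± 0.14 (limma adjusted p = 0.0264), a call lost without either skin array (0.60 and 0.47) or either spleen array (0.52 and 0.57). Cd44 passed in no comparison on any of its 5 kept probes.

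**Figure D3:**
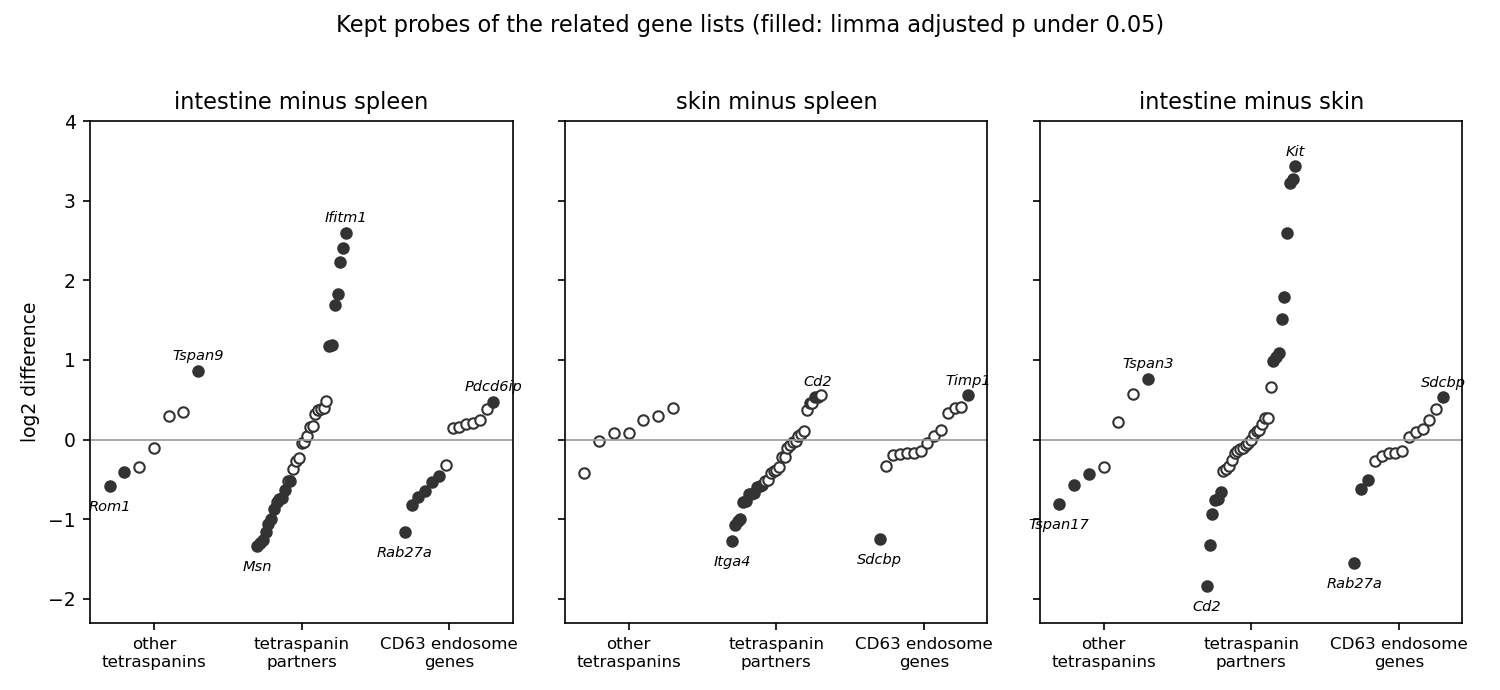
Log2 difference of every kept probe of the other tetraspanins (7 probes), the partner proteins (33) and the CD63 endosome genes (14), sorted within each list and filled where the limma adjusted p was under 0.05. The partner list reaches from Msn at -1.34 to Ifitm1 at 2.60 in intestine minus spleen, and Rab27a is lowest of the endosome genes at -1.16.

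Of 12 genes of the late endosome, granule and exosome pathway in which CD63 works, 10 had a kept probe, 14 probes in all. In intestine minus spleen, where Cd63 itself was higher in intestine, 1 of these probes rose, 6 fell and 7 did not pass (all kept probes 19.9% higher and 27.6% lower), with a median of -0.09. In skin minus spleen 1 rose, 1 fell and 12 did not pass (all kept probes 10.8% and 12.1%), with a median of -0.09. In intestine minus skin 1 rose, 3 fell and 10 did not pass (all kept probes 16.7% and 19.5%), with a median of -0.16. Rab27a, the GTPase that docks lytic granules, gave 272 and 324 in intestine, 946 and 1005 in skin, and 816 and 791 in spleen. Intestine was far below the other tissues, at -1.16 ± 0.14 against spleen (limma adjusted p = 0.000138) and -1.55 ± 0.14 against skin (limma adjusted p = 2.67e-05).

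Sdcbp, the gene of syntenin, an adaptor that binds the tail of CD63, gave 336 and 217 in intestine, 203 and 190 in skin, and 518 and 572 in spleen on its brighter probe. Spleen was highest, with skin minus spleen at -1.25 ± 0.18 (limma adjusted p = 0.00232) and intestine minus spleen at -0.72 ± 0.18 (limma adjusted p = 0.00836), the second of which was lost without spleen replicate II (-0.64). Its intestine minus skin of 0.53 ± 0.18 (limma adjusted p = 0.0396) was lost without any 1 array other than intestine replicate II, with values from 0.28 to 0.59. The dimmer Sdcbp probe gave -0.46 ± 0.14 in intestine minus spleen (limma adjusted p = 0.0234). This call was lost with no filter, without intestine replicate II (-0.40) or without either spleen array (-0.37 and -0.54). Its skin minus spleen of -0.19 ± 0.14 did not pass. In intestine minus skin it gave -0.27 ± 0.14, opposite in sign to the brighter probe, and did not pass. The probes of Pdcd6ip (ALIX) disagreed in intestine minus spleen, since the brighter fell (-0.82 ± 0.16, limma adjusted p = 0.0024) and the dimmer rose (0.47 ± 0.13, limma adjusted p = 0.0143). The brighter probe also fell in intestine against skin (-0.62 ± 0.16, limma adjusted p = 0.0127), lost without intestine replicate I (-0.45) or skin replicate II (-0.53). The rise of the dimmer probe was lost without either spleen array (0.45 and 0.49) and was 0.08 with the deposited scaling alone. One of the Lamp2 probes fell in intestine against spleen (-0.65 ± 0.14, limma adjusted p = 0.00401), lost without spleen replicate I (-0.56). Timp1, a secreted inhibitor that binds CD63 in human cells, rose in skin against spleen by 0.56 ± 0.16 (limma adjusted p = 0.0349), lost without skin replicate I (0.37) or either spleen array (0.61 and 0.45). Lamp1 passed in no comparison.

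Tspan32 and Cd81 lie beside each other on chromosome 7, with the long noncoding RNA gene R74862 alone between them in RefSeq, and Cd151 lies elsewhere on the same chromosome with Polr2l between it and Tspan4. The genes around them were looked at after the tetraspanin values had been seen. Of the 12 nearest genes with a kept probe around Tspan32 and Cd81, 3 were higher in intestine than in spleen by limma at an adjusted p under 0.05 and 3 were lower (all kept probes 19.9% and 27.6%), with a median difference of 0.11. The nearest on each side, Ins2 and Tssc4, differed by 0.20 ± 0.18 and 0.14 ± 0.13 and did not pass. The neighbours higher in intestine were Igf2 (1.55 ± 0.16), Cdkn1c (1.76 ± 0.22) and Cars (1.22 ± 0.13), and those lower were Ctsd (-1.27 ± 0.14), Tnfrsf26 (-0.77 ± 0.15) and Lsp1 (-0.39 ± 0.14). The Lsp1 call was lost without any 1 intestine or spleen array (-0.31 to -0.50) and under median scaling (-0.10). Around Cd151, 2 of 12 neighbours were higher in intestine than in spleen and 3 lower (all kept probes 19.9% and 27.6%), also with a median of 0.11.

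**Figure D4:**
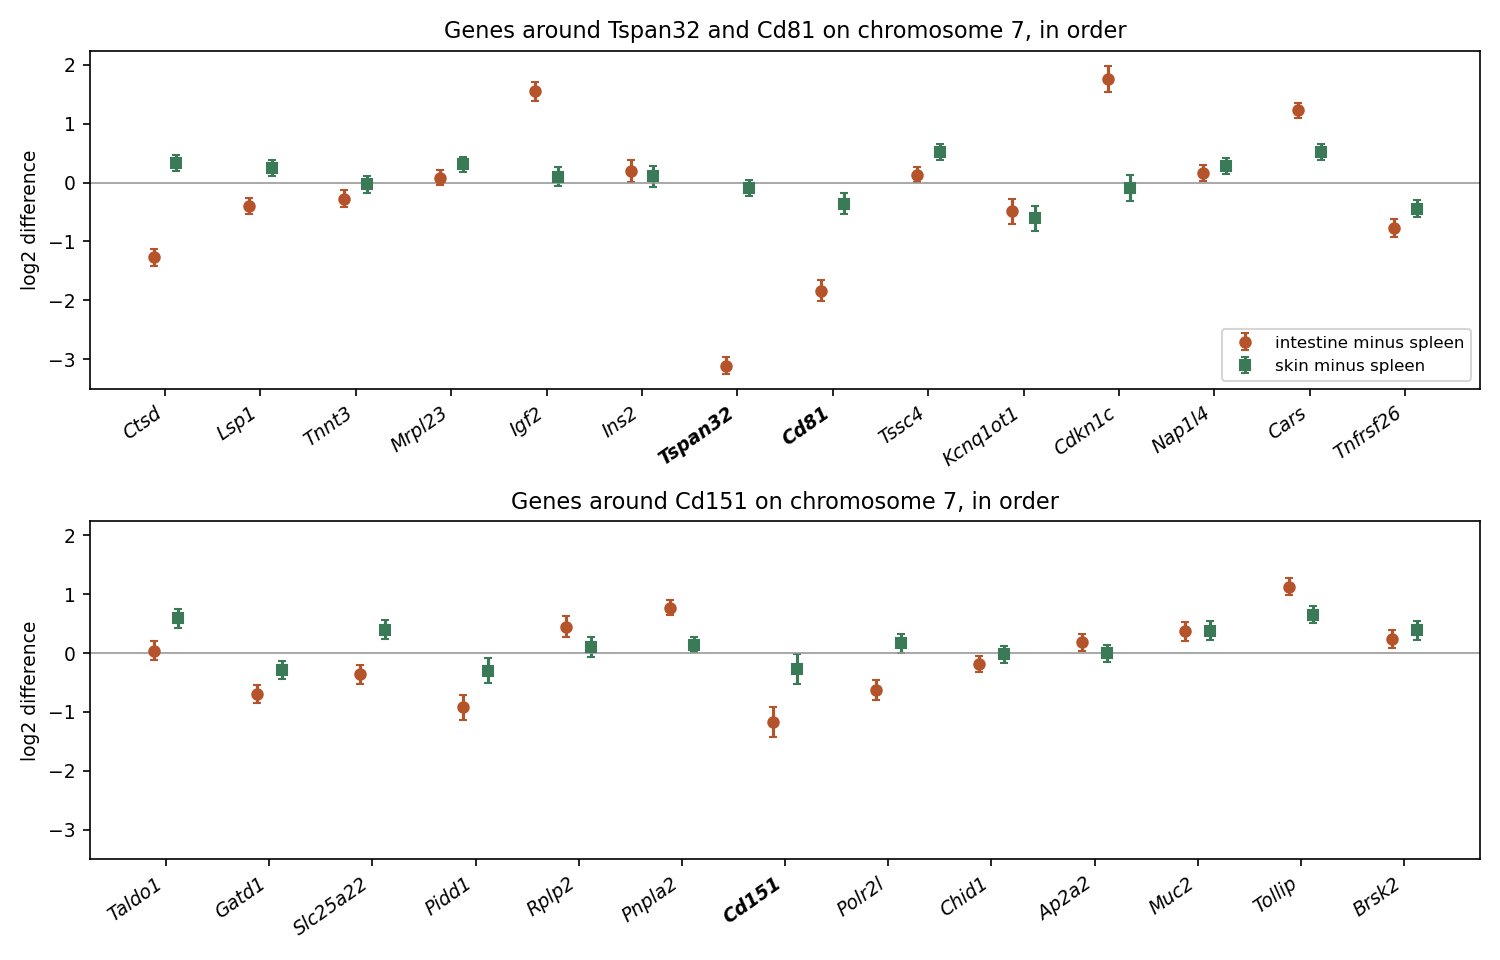
Log2 difference of intestine minus spleen (circles) and skin minus spleen (squares), with standard errors, for the genes around Tspan32 and Cd81 and around Cd151 on chromosome 7, evenly spaced in their RefSeq order. Tspan32 at -3.11 and Cd81 at -1.84 stand below their neighbours Ins2 at 0.20 and Tssc4 at 0.14.

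The genes most like a tetraspanin were sought over all kept probes of other genes, by the Euclidean distance between log2 profiles over the 6 arrays, each centred on its own mean. The arrays of a tissue share that tissue and those of a slide share the slide, so the distance describes these 6 arrays. Nearest to Tspan32 were Pdgfb (distance 0.45), Klhl30 (0.48) and Sema4a (0.54). The same difference, intestine minus spleen, was -2.73 for Pdgfb, -2.67 for Klhl30 and -3.17 for Sema4a, beside -3.11 for Tspan32. Nearest to Cd81 were Klra13-ps (0.09), Dync1li2 (0.11) and Casp9 (0.11), and nearest to Cd63 were Gpr18 (0.10), Gpr155 (0.20) and Zbtb46 (0.22). Within a distance of 0.5 lay 3 kept probes for Tspan32, 100 for Cd81 and 35 for Cd63, the member's own probe included. The genes named for Cd81 and Cd63 are thus among many with a like profile. Klhl30, Klra13-ps, Dync1li2 and Zbtb46 were named through older symbols of the array.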

How the data were processed

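RNA of sorted cells (RNeasy Micro Kit) was amplified to biotin-labelled cRNA with the Illumina TotalPrep-96 kit, per the labels, and hybridised to 6 Illumina mouse arrays. BeadStudio 1.5.1.3 is named in the submitters' processing notes. The deposited intensity of each probe is, per the file headers, an average signal. Its values below 0 and its equal array means show background subtraction and scaling to a common mean, by steps that no source used here describes. A detection p-value per probe and array was deposited beside it. A second deposited intensity table holds the signals unscaled. Unscaled over scaled was 0.995 and 0.612 in intestine, 0.526 and 0.643 in skin, and 1.65 and 1.58 in spleen. The number of arrays limits the precision.

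From these values, an offset of 16 was added, log2 was taken and the arrays were quantile normalized (limma 3.58.1, R 4.3.3). Normexp was not run, since the tables were already background-subtracted. The 18583 probes that both arrays of some tissue detected at a p under 0.01 were kept. One mean per tissue was fitted over the 6 arrays with lmFit and eBayes (3 residual degrees of freedom, 6.92 prior degrees of freedom, prior SD 0.154), each probe on its own, with Benjamini-Hochberg adjustment over all kept probes and a threshold of 0.05. The fit was tested on simulated data. Where a probe was not detected on either array of the dimmer tissue, the fold is a bound, taken from each array's smallest detected signal, or from the probe itself where that is larger.

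By the array names, slide 1 held every replicate I and slide 2 every replicate II. Deviations of same-numbered arrays correlated at 0.107 (intestine and skin), 0.143 (intestine and spleen) and 0.193 (skin and spleen) over the kept probes, so the numbers pair the samples through the slide, and a fit with the slide as replicate block was an alternative. The other alternatives were the scaling, the offset, the filter, the detection threshold, 1 probe per gene, the unscaled table and each array left out. Symbols were matched through RefSeq's mouse gene table (GRCm38.p6). Named were every probe of the 8 tetraspanins, genes of the 3 related lists with a kept probe (always the 3 widest called differences per list and comparison), the 3 nearest profiles of the 3 members with the widest fitted range, and 5 label checks. Some members of the lists are not reported here by name. The members and the lists were chosen with earlier results of these data known.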

Additional observations from a re-analysis of the deposited data

How the results depend on the processing

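Of the 36 tetraspanin differences between tissues, 34 kept their sign under every alternative that kept the probe, 14 to 16 each. The other 2, Cd37 in intestine minus spleen and Cd53 probe 1 in intestine minus skin, were near 0. Changing the filter, the detection threshold, the probes per gene or the replicate block leaves the difference itself unchanged. Under those alternatives no sign could move, here or in the counts of kept signs below, and only the calls could. With the replicate block, the called probes of the other tetraspanins still numbered 3 in intestine minus spleen, 0 in skin minus spleen and 4 in intestine minus skin, and those of the partners numbered 21, 19 and 17, against 19, 15 and 15 without it. Of the 69 called differences of the related lists, all 69 kept their sign and 34 stayed called under the alternatives that kept the probe (14 to 16), and of the 27 of neighbouring genes, all 27 kept their sign and 16 stayed called (15 to 16). Called probes of the other tetraspanins numbered 3 in intestine minus spleen, but 1 with an offset of 100, 1 with probes detected on all 6 arrays and 1 to 4 with an array left out. In skin minus spleen they numbered 0, but 1 with median scaling, 2 with the deposited scaling alone and 0 to 1 with an array left out. In intestine minus skin they numbered 4, but 2 with probes detected on all 6 arrays and 1 to 5 with an array left out. Over all probes, the calls in intestine minus spleen (8822) ranged from 5211 to 9078 with an array left out, and those in skin minus spleen (4253) from 622 to 6422, with 2277 where no filter was applied. Calls in skin minus spleen were fewest without spleen replicate II (622) and spleen replicate I (632), and 1165 without skin replicate I. The share of calls that were higher in intestine minus spleen was 41.9%, but 58.8% with median scaling and 24.7% with the deposited scaling alone, where the median over all probes moved from -0.07 to 0.10 and to -0.26. In skin minus spleen that share was 47.0%, against 67.4% and 30.7%, and in intestine minus skin it was 46.0%, against 33.6% with the deposited scaling alone. A lone array left in a tissue was assumed to vary like the other groups. Signal over background was highest on the spleen arrays, so dim probes such as Cd63, Cd81 and Cd151 probe 3 are measured less well in intestine and skin.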
